A study of Mus musculus with 2 samples.

Results

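The genes described here encode matrix proteins other than collagens: the glycoproteins and proteoglycans that fibroblasts secrete around themselves. They were followed in mouse fibroblasts that an electromagnetic field (EMF) acted on while they grew on gold nanoparticles (AuNPs), labelled EMF+AuNPs, and in fibroblasts labelled Control. Each condition is represented by 1 single-colour Illumina bead array, hybridised with cRNA made from total RNA. By its title the series concerns reprogramming into induced dopamine neurons by EMF, and the samples hold neither AuNPs without EMF nor EMF without AuNPs. The labels name the cells only as fibroblasts, and their strain, age, passage and tissue are not given in the sources used here. With 1 array per condition no value carries a replicate error, no test between conditions was possible, and every difference below describes these 2 arrays.

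A list of 38 genes was followed, and the members were found by their symbol in the platform annotation. The annotation held 54 probes for 33 of them, out of 25697 probes in all. The other 5 genes, Fn1, Fbn1, Spp1, Efemp2 and Smoc2, had no probe in it, so fibronectin, fibrillin 1 and osteopontin are not analysed here. Detection meant a detection p under 0.01, and 49 of the 54 probes passed this on both arrays and none on 1 array only. These 49 probes measured 30 genes, while the single probes of Fbln5, Efemp1 and Matn2 passed on neither array. Thus 90.9% of the members with a probe were detected, beside 52.1% of all genes with a probe. The weakest detected probe was a minor probe of Tnc, with detection p of 0.0088 with EMF and AuNPs and 0.0025 in control. The nearest undetected probe, also of Tnc, had detection p of 0.170 with EMF and AuNPs and 0.0439 in control.

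The noncollagen matrix is built in layers. Elastic fibres consist of crosslinked elastin on a scaffold of fibrillin microfibrils, which also carry microfibril-associated proteins, fibulins and emilins. Basement membranes are sheets in which nidogens and perlecan join networks of laminin and type IV collagen. Small leucine-rich proteoglycans decorate collagen fibrils and set their diameter and spacing, versican fills space with chondroitin sulphate chains, and matricellular proteins such as thrombospondins, tenascin C and CCN proteins are secreted into the matrix mainly to signal to cells. Fibroblasts are a main source of most of these proteins in connective tissue.

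The signal of most of these genes was high on both arrays. Ranked by signal among the 8651 genes detected on at least 1 array, 14 of the 30 stood among the first 500. Probes differ in how strongly they bind, so this places the measurements in the range of the arrays and does not rank transcripts. Throughout, a gene is represented by its brightest detected probe, intensities are the deposited linear values, log2 signals are background-corrected and quantile normalized, and a difference is the log2 signal with EMF and AuNPs minus that in control. To give each difference a scale, the robust SD of the differences among genes of like brightness was computed and is printed beside the larger ones. It ran from 0.14 to 0.38 for these members. Both noise and real change enter this spread, so it cannot replace replicates.

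The median difference of the 30 genes was -0.11, beside 0.03 over all 8651 detected genes. It was -0.22 when the detected probes of a gene were averaged and -0.04 with the probe of smallest difference. Of the 30 genes, 16 lay below 0, where 44% of all genes did. With EMF and AuNPs, 1 member (Thbs1) was at least 2-fold lower, against 0.485% of all genes, and 2 members (Thbs1 and Prelp) were at least 1.5-fold lower, against 2.91%. Without background correction, as in the authors' deposited log2 values, Thbs1 differed by -0.998 and no member passed 2-fold. No member was at least 2-fold or 1.5-fold higher, beside 0.52% and 3.34% of all genes past these limits upwards. Set against genes of like brightness, 9 members lay over 2 robust SDs below the median of their brightness class, where 4.9% of all genes detected on both arrays did. These were Thbs1, Prelp, Ccn5, Mfap4, Eln, Fbln2, Nid2, Hspg2 and Nid1. No member lay as far above it, where 3.24% of all genes did. The limit of 2 robust SDs was chosen after the values were seen, so this contrast describes the values and tests nothing. Nid1, Hspg2 and Fbln2 passed it narrowly, at -2.04, -2.14 and -2.17 robust SDs. The count was not followed under the alternative settings.

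**Figure D1:**
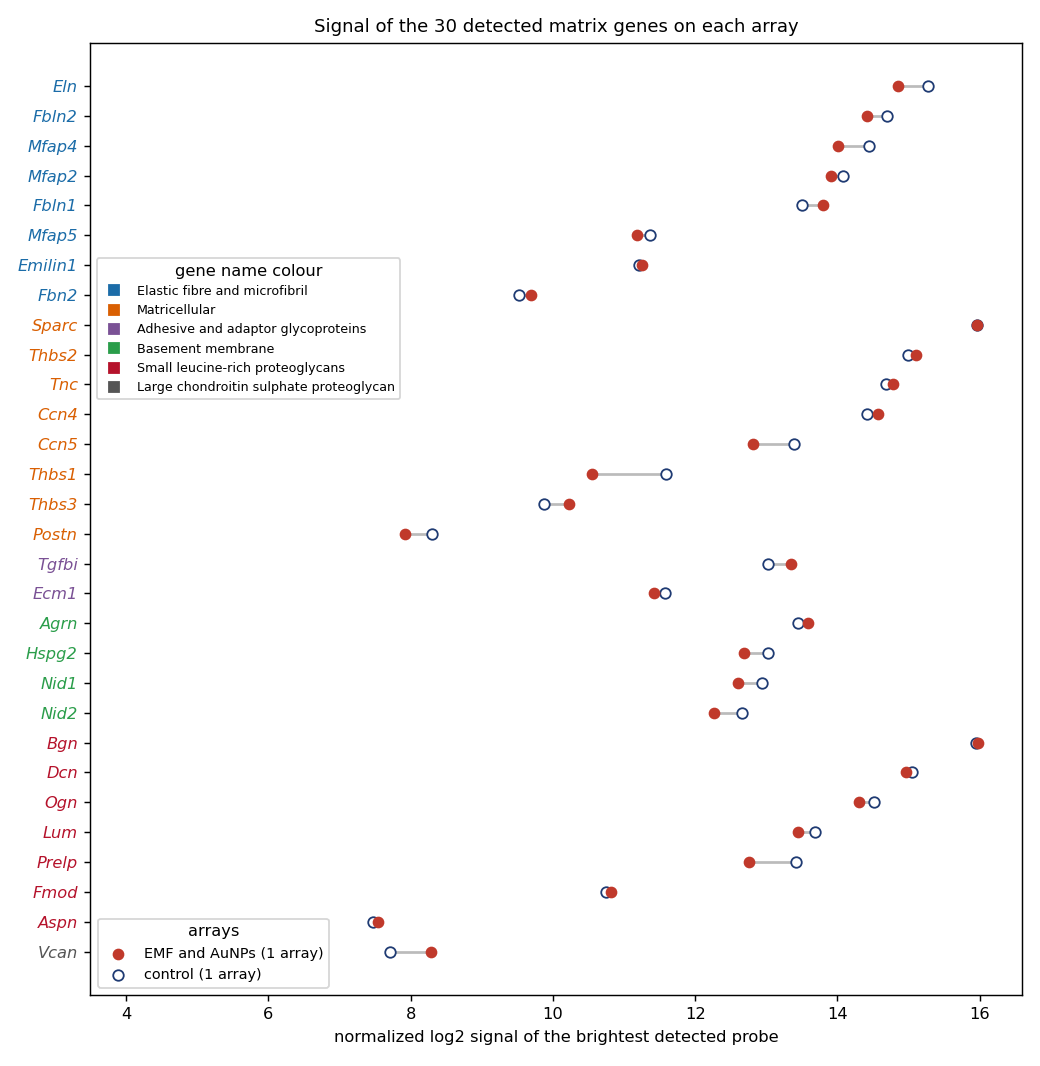
Normalized log2 signal (x axis) of the brightest detected probe of each of the 30 detected genes (y axis, name coloured by role), with filled points for the EMF and AuNPs array and open points for the control array. The widest gap is that of Thbs1, at 10.55 with EMF and AuNPs and 11.59 in control, and Prelp, Ccn5 and Vcan follow. Signals of different genes come from different probes and are not comparable with each other.

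Matricellular genes held the largest single difference. Thbs1 encodes thrombospondin 1, a trimeric glycoprotein that binds CD47 and CD36 on cells and can activate latent transforming growth factor beta. Its only probe had an intensity of 1572 with EMF and AuNPs and 3227 in control. It was 2.06-fold lower, a difference of -1.04 where genes of like brightness had a robust SD of 0.18. The other thrombospondins had values above 0. Thbs2, an inhibitor of angiogenesis related to thrombospondin 1, had an intensity of 35127 with EMF and AuNPs and 33104 in control, a difference of 0.11. Thbs3, a pentameric family member, differed by 0.35 on its brightest probe (intensity 1264 with EMF and AuNPs, 1064 in control) and by 0.32 and 0.07 on its other probes. The thrombospondin family held both the largest decrease and the second largest increase of the set, although the size of the Thbs3 difference depended on the probe.

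Among the CCN proteins, Ccn5, a member that lacks the carboxy-terminal module of its relatives, had an intensity of 7280 with EMF and AuNPs and 10820 in control. Its 1 probe was 1.49-fold lower, a difference of -0.57 against a robust SD of 0.17, just inside the 1.5-fold limit. Ccn4, a Wnt-induced relative, was measured by probes that disagreed. Its brightest probe differed by 0.16 (intensity 24637 with EMF and AuNPs, 21848 in control) and its other probe by -0.58 (1121 with EMF and AuNPs, 1695 in control). The mean of both probes was -0.21, so no direction can be given for Ccn4.

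Sparc, a collagen-binding glycoprotein, was likewise measured differently by its 2 probes. The brightest had an intensity of 63218 with EMF and AuNPs and 64670 in control. It held the same rank of 15 on both arrays, so quantile normalization set its difference to 0. The other probe had an intensity of 33265 with EMF and AuNPs and 50652 in control, and was 1.52-fold lower with a difference of -0.60. The first of these probes lies at the very top of the range, where only 25 probes exceeded an intensity of 60000 with EMF and AuNPs and 28 in control. The part played by this position in the disagreement was not tested.

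Tnc, which encodes the anti-adhesive hexameric protein tenascin C, differed by 0.09 and 0.00 on its bright probes and by -0.31 and -0.33 on its dim detected ones. Its brightest probe read 27805 with EMF and AuNPs and 26583 in control. Postn, which encodes periostin, gave a dim signal of 330 with EMF and AuNPs and 428 in control. That is a difference of -0.38, close to the robust SD of 0.32 at that brightness. Of the 8 matricellular genes measured, 4 lay above 0, 3 below and Sparc at 0, with a median of 0.05.

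**Figure D2:**
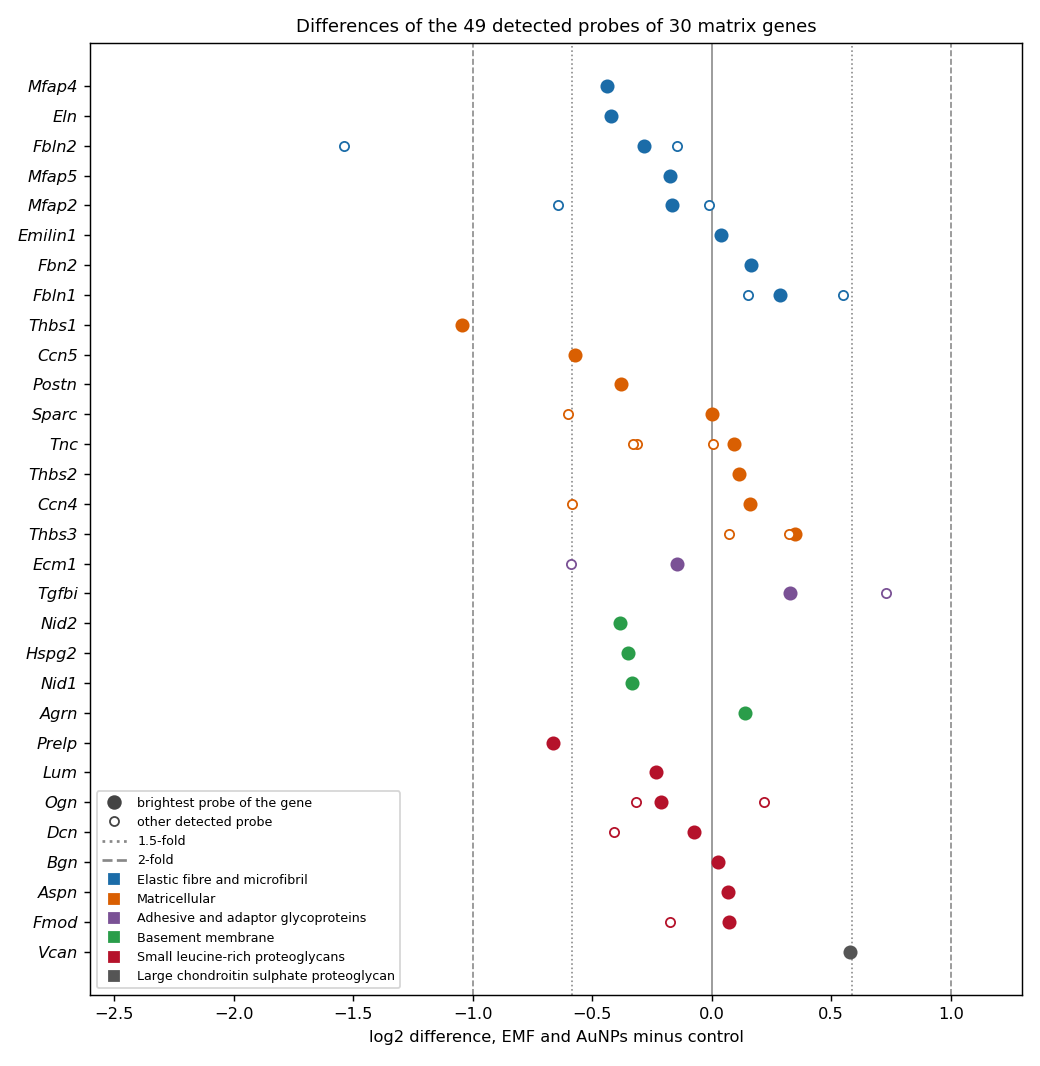
Log2 difference, EMF and AuNPs minus control (x axis), of all 49 detected probes of the 30 genes (y axis, grouped and coloured by role); filled points are the brightest probe of each gene and open points its other probes, with dotted lines at 1.5-fold and dashed lines at 2-fold. Thbs1 and a minor probe of Fbln2 lie past 2-fold lower, and no probe lies past 2-fold higher. Open points lie far from their filled point for Fbln2, Ccn4, Mfap2 and Sparc.

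Among the elastic fibre genes, Eln, Mfap4 and Fbln2 were lower with EMF and AuNPs by small amounts. Eln encodes tropoelastin, the soluble subunit of elastin, and read 29577 with EMF and AuNPs and 39452 in control. It was 1.34-fold lower, a difference of -0.42 where genes of like brightness had a robust SD of 0.14. Mfap4, a microfibril-associated glycoprotein that binds elastin and fibrillin, read 16462 with EMF and AuNPs and 22419 in control, a difference of -0.44. Both genes rest on a single probe, and over the 5 alternatives of background, normalization and offset they ran between -0.34 and -0.46.

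Fbln2 encodes fibulin 2, a calcium-binding glycoprotein of elastic fibres and basement membranes, and all 3 of its probes lay below 0. The brightest read 21939 with EMF and AuNPs and 26832 in control, a difference of -0.28, and a second differed by -0.15. The third read 238 with EMF and AuNPs and 543 in control and was 2.90-fold lower, or -1.54. It was also the probe with the lowest difference among the 49, and in the authors' deposited log2 values it differed by -1.10. The probes of Mfap2, which encodes the small microfibril protein MAGP-1, also agreed in direction but not in size, at -0.17, -0.01 and -0.64 from the brightest to the dimmest.

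Of the 4 remaining elastic fibre genes, 3 lay above 0 and Mfap5 below. Fbln1, a fibulin that binds fibronectin and laminin, lay above 0 on all 3 probes, at 0.28, 0.15 and 0.55. Its brightest probe read 14171 with EMF and AuNPs and 11705 in control. Fbn2, the fibrillin prominent in developing tissue, differed by 0.16, Emilin1, a glycoprotein at the interface of elastin and microfibrils, by 0.04, and Mfap5, which encodes MAGP-2, by -0.17. In all, 5 of the 8 measured elastic fibre genes lay below 0, where 44% of all genes did, and 3 above, with a median of -0.17 and none past 1.5-fold.

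Of the 4 basement membrane genes, 3 were lower with EMF and AuNPs by similar amounts. Nid1 and Nid2 encode the nidogens, which link laminin to type IV collagen, and Hspg2 encodes perlecan, a large heparan sulphate proteoglycan. Nid1 read 6294 with EMF and AuNPs and 7906 in control, a difference of -0.33. Nid2 read 5000 with EMF and AuNPs and 6618 in control, a difference of -0.39. Hspg2 read 6593 with EMF and AuNPs and 8419 in control, a difference of -0.35. These 3 differences lay close together, where the robust SD at this brightness was 0.17. Agrn, which encodes agrin, the heparan sulphate proteoglycan that clusters acetylcholine receptors at the neuromuscular junction, lay above 0, with 12333 with EMF and AuNPs and 11260 in control (0.14). Each of the 4 genes rests on 1 probe, and none passed 1.5-fold.

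Small leucine-rich proteoglycans lay within 1.5-fold of control with the exception of Prelp. Prelp, a member of the family that binds perlecan and collagen, read 6982 with EMF and AuNPs and 11095 in control. It was 1.59-fold lower, a difference of -0.67 against a robust SD of 0.17, and it stayed past 1.5-fold under the 5 alternatives that could move a gene with 1 probe. Bgn, which encodes biglycan, had a signal near the top of the range, at 63648 with EMF and AuNPs and 64331 in control, and differed by 0.03. Dcn, which encodes decorin, read 31817 with EMF and AuNPs and 34133 in control, a difference of -0.07, while its other probe differed by -0.41.

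Lum, which encodes lumican, a regulator of collagen fibrils in cornea and skin, read 11258 with EMF and AuNPs and 13232 in control and differed by -0.23. Ogn (osteoglycin) differed by -0.21 on a bright probe of intensity 20444 with EMF and AuNPs and 23682 in control, but by -0.32 and 0.22 on dim ones. Fmod (fibromodulin) differed by 0.07 and -0.18, and Aspn (asporin), dim at 276 with EMF and AuNPs and 285 in control, by 0.07. Of the 7 members of this family, 4 lay below 0 and 3 above, with a median of -0.07.

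Besides Thbs3, the 2 highest differences of the set were those of Vcan and Tgfbi. Vcan, which encodes the large chondroitin sulphate proteoglycan versican, had a dim signal of 399.8 with EMF and AuNPs and 320.0 in control. It was 1.49-fold higher, a difference of 0.58 where genes of like brightness had a robust SD of 0.32, and it shrank to 0.42 in the authors' deposited log2 values. Tgfbi encodes an integrin-binding adhesive protein induced by transforming growth factor beta, which macrophages make as well as fibroblasts. Its brightest probe read 10550 with EMF and AuNPs and 8402 in control, a difference of 0.33. Its other probe read 1977 with EMF and AuNPs and 1270 in control and was 1.66-fold higher, or 0.73, the one probe of the 49 past 1.5-fold higher. Ecm1, a glycoprotein that binds perlecan and fibulin 1, lay below 0 on both probes, at -0.15 and -0.59, the second of them very dim.

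Promoters were available in the RefSeq table of build GRCm38.p6 for 25 of the 38 genes, and those of 3 genes are shown: Prelp, lower past 1.5-fold, and Fbln2 and Tgfbi, whose probes all lay on 1 side of 0, one gene lower and the other higher. Each is 300 bases long, spans the annotated start of the gene and is given on the strand of the gene. Prelp lies at chr1:133921352-133921651 on the minus strand, Fbln2 at chr6:91212514-91212813 on the plus strand and Tgfbi at chr13:56609336-56609635 on the plus strand. Capitals mark matches, on either strand, to GGGCGG, the GC box bound by Sp1 family factors.
Prelp: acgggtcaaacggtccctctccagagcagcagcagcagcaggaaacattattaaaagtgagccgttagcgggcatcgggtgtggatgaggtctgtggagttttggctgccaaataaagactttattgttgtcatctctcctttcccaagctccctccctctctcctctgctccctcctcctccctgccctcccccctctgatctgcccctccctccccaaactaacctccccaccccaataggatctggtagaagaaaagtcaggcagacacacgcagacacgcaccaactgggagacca
Fbln2: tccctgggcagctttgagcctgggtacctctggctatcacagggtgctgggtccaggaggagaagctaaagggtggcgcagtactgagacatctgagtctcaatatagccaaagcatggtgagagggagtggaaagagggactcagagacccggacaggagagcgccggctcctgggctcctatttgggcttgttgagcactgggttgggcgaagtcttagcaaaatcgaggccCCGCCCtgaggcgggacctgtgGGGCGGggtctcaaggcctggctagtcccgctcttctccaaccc
Tgfbi: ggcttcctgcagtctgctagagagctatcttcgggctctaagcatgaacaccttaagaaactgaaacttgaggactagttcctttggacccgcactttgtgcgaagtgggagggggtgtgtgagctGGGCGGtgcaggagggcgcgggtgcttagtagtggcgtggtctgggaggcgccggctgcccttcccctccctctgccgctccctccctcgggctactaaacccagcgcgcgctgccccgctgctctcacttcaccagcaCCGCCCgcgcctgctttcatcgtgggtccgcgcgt
Fbln2 and Tgfbi each held 2 matches to GGGCGG and Prelp held 0. TATAAA (the TATA box), TGANTCA (the AP-1 site), GGAATG (the core bound by TEAD factors) and the CArG box of serum response factor were also searched on both strands, with 0 matches in these 3 windows. Overlaps between motifs were allowed. Among the 34 promoters of the 25 genes, GGGCGG was in 58.8%, beside 35.7% of all 32851 promoters, TATAAA in 23.5% beside 13.6%, GGAATG in 8.82% beside 14.7%, TGANTCA in 5.88% beside 7.81% and the CArG box in none beside 1.63%. A match describes letters in a window, several promoters can belong to 1 gene, and no link to the differences between arrays was tested.

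**Figure D3:**
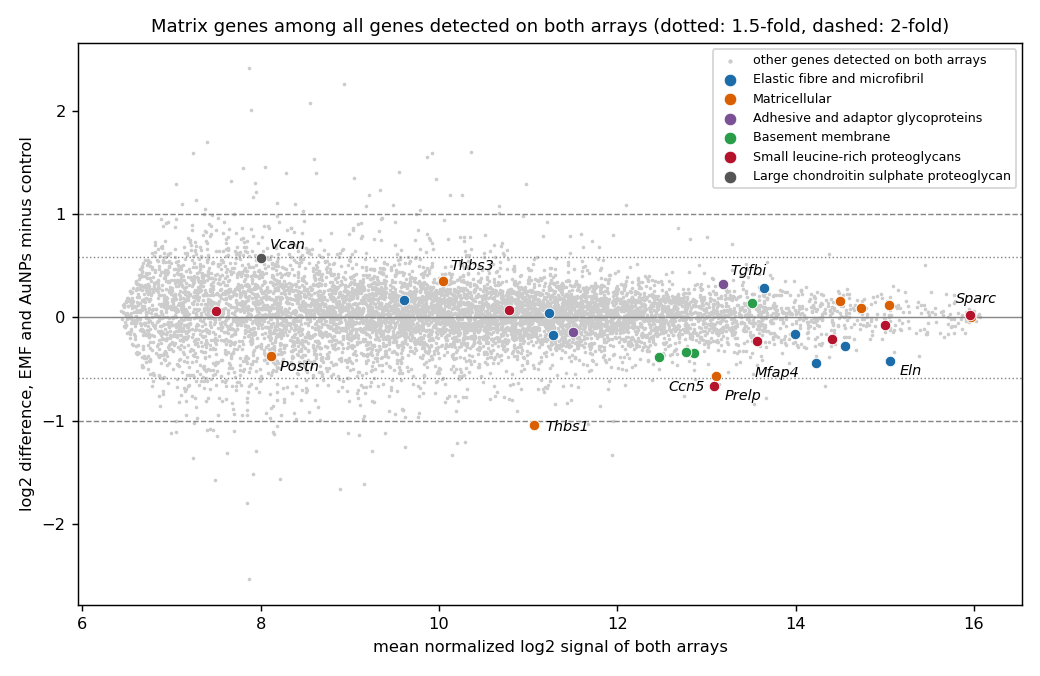
Log2 difference, EMF and AuNPs minus control (y axis), against the mean normalized log2 signal of both arrays (x axis) for the 8199 genes detected on both arrays, with the 30 matrix genes coloured by role. Dotted lines mark 1.5-fold and dashed lines 2-fold. Thbs1 and Prelp are the matrix genes past 1.5-fold lower, and the matrix genes extend to the right end of the axis, where the spread of all genes is narrowest.

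Probes of the same gene give the only repeat measurement in these data, though they share the RNA sample and the array. A total of 12 genes had more than 1 detected probe, and in 7 all probes lay on the same side of 0. Directions differed in Ccn4, Fmod, Ogn and Tnc, and in Sparc 1 probe lay at 0. The probes lay over 1.5-fold apart in 4 genes, Fbln2, Ccn4, Mfap2 and Sparc. Thbs1, Prelp, Ccn5, Eln, Mfap4, Nid1, Nid2 and Hspg2, which carry most of the lower values, are all among the 18 genes with a single detected probe and have no such check. Counted by probe, 6 of the 49 were at least 1.5-fold lower and 2 at least 2-fold lower, where 4.5% and 0.872% of all probes detected on both arrays were. Upwards, 1 probe passed 1.5-fold and 0 passed 2-fold, beside 3.11% and 0.518%.

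Genes that receive, modify or cut these proteins were listed alongside. Of 14 detected receptors, 7 differed upwards and 7 downwards, with a median of -0.01. Past 1.5-fold there was 1 each way, where 3.34% of all genes were higher and 2.91% lower. Ddr2, a collagen receptor, was 1.53-fold higher and Itgb1, the shared beta subunit of many matrix-binding integrins, was 1.51-fold lower. No receptor was past 1.5-fold higher under 3 of the 11 alternatives and none past 1.5-fold lower under 6, no background correction being among both. Cd44, a receptor for hyaluronan and osteopontin, followed at -0.41. The thrombospondin receptor gene Cd47 differed by 0.13, and Cd36 was not detected. Among the other lists, the 18 detected enzymes of glycosaminoglycan synthesis had a median of 0.09 and none past 1.5-fold. Of these, 13 lay above 0 and 5 below, where 44% of all genes lay below 0. The 3 largest were Hs6st1, a heparan sulphate sulphotransferase, at 0.41, B3galt6, which builds the linker of glycosaminoglycan chains to core proteins, at 0.36, and the exostosin-like gene Extl3 at 0.30.

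Of 11 detected elastic fibre partners, 6 lay above 0 and 5 below, with a median of 0.03. The elastin crosslinking enzyme gene Lox differed by -0.19 and its relative Loxl1 by 0.16, beside the difference of -0.42 for Eln. The largest in this list were Adamtsl2, a fibrillin-binding protein (0.56), Adamtsl4 (-0.39) and the latent TGF-beta binding protein gene Ltbp4 (0.36). Among these lists, proteases that cut matrix proteins held the largest differences. Of 15 detected, 10 lay above 0 and 5 below, where 44% of all genes lay below 0. Past 2-fold higher were 3 proteases, where 0.52% of all genes were. These were the metalloproteinase genes Mmp3 (1.41), Mmp13 (1.29) and Mmp9 (1.22). Mmp9 was dim, with an intensity of 460 with EMF and AuNPs and 269 in control, where detection began at 181 and 187. Signal over background limits its call, and the 2-fold count was not followed under the alternative settings. The median of the list was 0.26 and ran from 0.05 to 0.26 over the alternative settings, and with the detected probe of smallest difference 2 proteases passed 1.5-fold higher. Adamts1, which cleaves versican, differed by -0.70 and was the 1 protease past 1.5-fold lower, where 2.91% of all genes were. Adamts5, which cleaves versican and aggrecan, differed by -0.56.

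Markers of the labelled cell type were present, and so were markers of another. All 12 fibroblast markers were detected, where 52.1% of all genes with a probe were. Their median was -0.12, with 9 below 0, where 44% of all genes lay below 0. The 1 fibroblast marker past 1.5-fold was Ddr2, which was 1.53-fold higher (0.61), where 3.34% of all genes were past this limit upwards. Under 3 of the 11 alternatives Ddr2 did not pass it. This list shares Lum and Dcn with the matrix genes. The summed intensity of the 12 fibroblast markers, not normalized between arrays, was 179057 with EMF and AuNPs and 195444 in control. The array carried 13 macrophage and leukocyte markers, and 12 passed detection, beside 52.1% of all genes with a probe. The median of the 12 was 0.07, beside 0.03 over all detected genes. Of the 12, 9 lay above 0 and 3 below, where 44% of all genes lay below 0. The summed intensity of all 13, not normalized between arrays, was 165564 with EMF and AuNPs and 157544 in control. Lyz2, the macrophage lysozyme gene, had a log2 signal of 15.38 with EMF and AuNPs and 15.49 in control, while Itgam was not detected and the pan-leukocyte gene Ptprc was detected in control only. The largest difference of the list was that of Cd52, a leukocyte surface antigen gene, which was 1.75-fold higher (0.80). It was the 1 marker of this list past 1.5-fold, where 3.34% of all genes were higher by as much. Fcer1g, a signalling chain of Fc receptors, differed by 0.30. The direction of these lists stands beside the matrix genes as a measurement, and their part in the matrix differences was not tested. In such bulk samples fewer cells of a type and less RNA per cell cannot be told apart.

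Markers of other lineages were counted beside the 52.1% of all genes with a probe that were detected. Of 8 endothelial markers 3 were detected, all dim, and Pecam1, Cdh5 and Kdr were not. Of 5 epithelial markers 2 were detected. Lists this short cannot set these counts apart from that share. Of 8 cartilage and bone markers, Col2a1, Sox9, Comp and Alpl, 4 in all, were detected, beside 52.1% of all genes with a probe. Acan, Ibsp, Bglap and Sp7 were not. Comp, dim at 241 with EMF and AuNPs and 197 in control, was 1.59-fold higher (0.67). It was the 1 skeletal marker past 1.5-fold, where 3.34% of all genes were higher by as much. Col2a1, also dim, differed by -0.51. Smooth muscle markers were detected in 4 of 5 cases. Acta2, the smooth muscle actin gene that myofibroblasts also express, had an intensity of 68139 with EMF and AuNPs, the highest of that array, and 67755 in control, a difference of 0.03. Tagln differed by -0.42. Myh11 was 1.80-fold lower (-0.85), the 1 smooth muscle marker past 1.5-fold, where 2.91% of all genes were lower by as much.

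**Figure D4:**
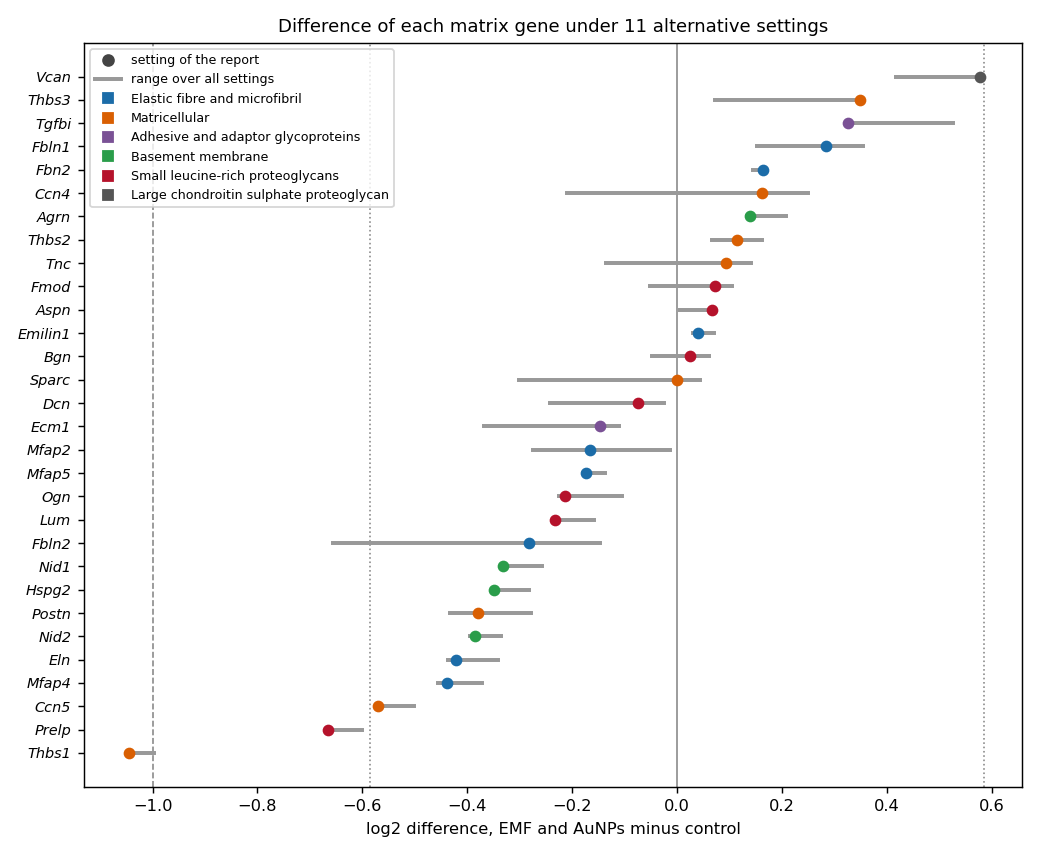
Log2 difference, EMF and AuNPs minus control (x axis), of each of the 30 genes (y axis, ordered by difference): points give the value of the report, coloured by role, and grey bars the range over it and 11 alternative settings of background correction, normalization, detection limit and choice of probe. Dotted lines mark 1.5-fold and the dashed line 2-fold lower. The bars of Thbs1 and Prelp stay left of 1.5-fold lower, the bar of Thbs1 reaches -0.998 at its smallest, and the bars of Ccn4, Tnc, Fmod, Bgn and Sparc cross 0.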

How the data were processed

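Per the labels' protocols, biotinylated cRNA was made from Trizol-extracted total RNA of 1 EMF+AuNPs and 1 Control sample. The submitters' processing notes name GenomeStudio 2011.1. Per the file headers, the authors deposited a linear signal intensity for each of 25697 probes, not normalized between arrays, with a detection p-value beside each. A detection p-value column follows its own array: it correlated with that array's intensity at a Spearman rho of -0.976 (EMF and AuNPs) and -0.977 (control), against -0.940 and -0.941 with the other array's. The authors also deposited log2 values, which equal the quantile normalized log2 intensity without background correction to within 4.99988e-07. Other steps are not given in the sources used here.

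Intensities were processed with neqc of limma 3.58.1 (R 4.3.3; offset 16), which infers background from the detection p-values, corrects it, normalizes by quantiles and returns log2 values. Gene symbols came from the platform annotation, which named 23978 probes. A gene was represented by its brightest probe detected (p under 0.01) on 1 array or both; there were 8651 such genes, with 8199 detected on both arrays. A gene detected on 1 array enters with a bound, set against the higher of its own dim value and the lowest detected value of that array; no member was of this kind. Robust SDs are 1.4826 times the median absolute deviation in 20 bins of brightness. Genes were called by size, at 2-fold and 1.5-fold, since 1 array per condition allows no test; the number of arrays limits the precision. The limit of 2 robust SDs was chosen after the values were seen. Members, roles and related lists were chosen with earlier results of these data known. All members are accounted for; full values are given for those past 1.5-fold, those whose probes disagree and the brightest, and values of others were added after they were seen. Simulated arrays with known differences were used to check the steps. The differences were placed only in brighter probes, so the check does not reach dim genes such as Vcan, Postn and Aspn. Alternatives are in the closing section. Promoters are those of RefSeq, build GRCm38.p6, matched by symbol; no coordinates are given for probes, since no source used here states their build.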

Additional observations from a re-analysis of the deposited data

How the results depend on the processing

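Each of the 30 differences was recomputed under 11 alternatives, covering background correction, normalization, offset, detection limit and the probe that stands for a gene, which gave 330 values. By construction 126 of these could not move (all detected member probes passed on both arrays, and 18 genes have 1 detected probe), and 30 from the deposited values repeat the setting without background correction. Of the other 174, 165 moved by less than the robust SD of genes of like brightness and 9 by more. Those 9 all came from averaging the detected probes of a gene or from taking the one with the smallest difference. Thbs1 and Prelp, past 1.5-fold, kept their sign, but with 1 probe each the choice of probe could not move them. Ccn4, Tnc, Fmod and Bgn, with small differences above 0, fell below 0 under at least 1 alternative. The count of members at least 2-fold lower was 0 without background correction and 0 with the authors' deposited log2 values, where Thbs1 differed by -0.998, slightly short of 2-fold, and 1 under the other alternatives. No alternative put a member past 1.5-fold higher. The count past 1.5-fold lower was 2 or 3. The third gene was Fbln2, at -0.66 when its probes were averaged. The median difference of the members ran from -0.04 to -0.22 (with averaged probes) and stayed below 0. Averaging gave -0.21 for Ccn4, -0.14 for Tnc and -0.30 for Sparc. The causes of these shifts were not tested. The median of the protease list ran from 0.05 to 0.26. No paired analysis was possible because each condition has 1 array, and no replicate could be left out. Signal over background limits Vcan, Postn and Aspn, the 3 dimmest of the detected members, where detection began at 181 with EMF and AuNPs and 187 in control.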

Other observations

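The probe chosen to represent a gene bears on the size of the median difference of the set, which stayed below 0. In the 12 matrix genes with several detected probes, 14 of the 19 other probes lay below the brightest probe of their gene and 5 above, a share of 73.7%, with a median gap of -0.25. Over 2726 such probes of 2054 genes on the array, 59.4% lay below, with a median gap of -0.07. Probes of 1 gene are not independent, and the gap was not tested.

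Grouped by the intensity of the brightest probe in control, the 10 matrix genes over 20000 had a median difference of -0.04 with 5 below 0, the 10 genes between 5000 and 20000 had -0.28 with 7 below 0, and the 10 genes under 5000 had 0.05 with 4 below 0. The middle band holds Prelp, Ccn5, Nid1, Nid2 and Hspg2. Over all detected genes, 44% lay below 0. These bands were chosen after the values were seen.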
